A study of Arabidopsis thaliana with 6 samples.

Results

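The genes described here are 51 nuclear genes of Arabidopsis thaliana that encode the proteins which collect light and carry photosynthetic electrons in the chloroplast. They were taken from a list of locus codes drawn up by the complex each protein belongs to, by a rule that has no measured value in it but with earlier results of these data known, and are 51 of the 28141 features in the data once isoforms were summed per locus. By complex they are 6 genes of the photosystem I antenna (LHCA), 9 of the major antenna of photosystem II (LHCB1 to LHCB3), 6 of its minor or rare antenna proteins (LHCB4 to LHCB7), 12 of photosystem I (PSA), 10 of photosystem II (PSB), 6 of electron transfer and 2 of the ATP synthase.

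RNA was measured in whole 5-day-old seedlings of accession Col-0, with 3 libraries per genotype, the genotypes being wild-type and fip37-4 LEC1:FIP37. Both groups grew on MS medium at 23 °C, with 16 h light and 8 h dark each day. FIP37 belongs to the enzyme complex that methylates adenosines of mRNA at the N6 position, and fip37-4 is an allele of its gene. In fip37-4 LEC1:FIP37, FIP37 is supplied from the promoter of LEC1, a regulator of embryo development. The comparison asks how RNA levels of such seedlings differ from wild-type after germination. The labels do not say how many transgenic lines were used or whether replicates came from separate sowings, and the spread behind each p-value is that between these libraries, possibly technical. From here on, fip37-4 LEC1:FIP37 is also called the transgenic line.

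In thylakoid membranes, LHCA proteins form a belt on one side of photosystem I, and LHCB1, LHCB2 and LHCB3 form the trimers that pass excitation energy to photosystem II. LHCB4, LHCB5 and LHCB6, also known as CP29, CP26 and CP24, link those trimers to the photosystem II core. Electrons taken from water by photosystem II pass through the cytochrome b6f complex, plastocyanin, photosystem I and ferredoxin to NADP, and the proton gradient made on the way drives ATP synthase. The core subunits are encoded partly in the chloroplast and partly in the nucleus, and the nuclear genes are known to respond to light and to the state of the chloroplast.

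The 250 bases before the annotated start of each gene are shown for the genes with the largest rise and the largest fall, LHCB2.3 and LHCB4.3, and for PSAH1 and PSAH2, which were picked after their values were seen because that pair showed the largest shift between paralogs. Sequences come from RefSeq's assembly TAIR10.1, run 5′ to 3′ on the strand of the gene and leave out bases that lie in an annotated gene. Capitals mark CACGTG or CCAATC, the former known as the G-box of light-regulated promoters. The sequences cover chr3:10255691-10255905 (+) for LHCB2.3, chr2:16745378-16745627 (+) for LHCB4.3, chr3:5469595-5469844 (-) for PSAH1 and chr1:19454766-19454797 (+) for PSAH2, whose upstream neighbour CURT1C (AT1G52220) takes the rest of the window. The LHCB2.3 stretch stops short of the start at 10255941, because the bases between lie in an annotated gene.
LHCB2.3: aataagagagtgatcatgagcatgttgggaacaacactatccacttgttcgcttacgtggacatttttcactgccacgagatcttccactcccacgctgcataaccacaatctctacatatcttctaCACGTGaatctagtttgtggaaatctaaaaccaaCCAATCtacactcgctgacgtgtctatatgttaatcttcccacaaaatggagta
LHCB4.3: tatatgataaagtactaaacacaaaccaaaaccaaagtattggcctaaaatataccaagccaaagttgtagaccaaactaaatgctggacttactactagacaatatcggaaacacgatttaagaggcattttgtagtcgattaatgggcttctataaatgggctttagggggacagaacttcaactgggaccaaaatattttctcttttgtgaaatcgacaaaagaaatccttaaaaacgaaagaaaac
PSAH1: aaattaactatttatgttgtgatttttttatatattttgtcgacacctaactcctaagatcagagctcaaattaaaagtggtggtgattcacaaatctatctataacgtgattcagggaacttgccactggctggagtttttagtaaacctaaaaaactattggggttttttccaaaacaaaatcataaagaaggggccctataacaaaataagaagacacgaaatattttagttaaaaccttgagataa
PSAH2: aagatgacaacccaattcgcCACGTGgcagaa

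Each of 4 motifs was searched on both strands of the full 250 bases, and none of the 4 is contained in another. CACGTG was present before 10 of the 51 genes, or 19.6%, against 6.57% of 27406 nuclear protein-coding genes. GATAAG, the I-box, was present before 15 genes, or 29.4%, against 12.4%. CCAATC was present before 15 genes, or 29.4%, against 10.2%. By complex it lay before 5 of 9 genes of the major antenna, 2 of 6 of the minor antenna and 3 of 6 of the photosystem I antenna. It also lay before 3 of 6 genes of electron transfer, 1 of 2 of ATP synthase, 1 of 10 of photosystem II and 0 of 12 of photosystem I. AAAATATCT, the evening element of clock-regulated promoters, was present before 1 gene, ATPC1, or 1.96%, against 2.35%. CCAATC lay before 13 of the 35 genes that were higher in the transgenic line and before 1 of the 8 that were lower, and CACGTG before 7 and 2 of them. Of the 8 genes that did not pass the test, 1 had CCAATC and 1 had CACGTG. A link between motif and change was not tested. LHCB4.3 and PSAH1 had none of the 4 motifs in this window. These matches describe letters and not binding.

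The values are FPKM, which relate fragments to the length of a transcript and to all mapped fragments of its library. The libraries summed to between 1160321 and 1350343 FPKM, and the fragments sequenced are not given in the sources used here. From the steps between low values, the depth relative to wild-type replicate 1 was 0.792 to 1.12. A single fragment on a transcript of 1000 nt was worth 0.0282 to 0.0398 FPKM, so the members were far above the level of single fragments. The lowest were LHCB4.3, worth about 49.95 to 218 fragments in a library, and LHCB7, worth about 112 to 174. FIP37 (AT3G54170) stood at 8.99, 9.03 and 8.96 FPKM in wild-type and at 80.6, 65.0 and 67.5 FPKM in the transgenic line, higher by 2.91 ± 0.077 on the log2 scale (SE, adjusted p = 1.97e-07 in limma), and these values sum transgene and endogenous transcripts and do not show the state of the endogenous gene. Genes of the organelles took 50.7 to 51.2% of all FPKM in wild-type and 56.9 to 60.1% in the transgenic line. Nuclear loci took 41.3 to 42.0% and 38.1 to 39.3%. The rest lay in features with neither kind of locus code, and was smaller in the transgenic line and smallest in its replicate 1. In the transgenic line, replicate 1 was below both other libraries for 38 of the 51 members, and counts without it are given beside the result. That library was picked out from these same values, so fits without it describe its weight and are no separate evidence of a rise.

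Most of the 51 genes were higher in the transgenic line. Of the 51, which all passed the filter on low values, 35 rose and 8 fell, and 8 did not pass the test (limma with Benjamini-Hochberg adjustment over 19383 features, adjusted p under 0.05). Among all tested features 27.6% were higher and 30.9% lower. The median log2 fold change of the members was 0.39, with 0.28, 0.45 and 0.43 in the transgenic replicates taken one at a time (SD 0.092), against -0.0019 for all features. The changes were moderate: 12 members were at least 1.5-fold higher and 1 was at least 2-fold higher. The groups did not overlap for 44 of the 51, where 65.9% of all features did not overlap. Of all FPKM in a library, the members together made up 8.27, 8.26 and 8.33% in wild-type and 9.68, 10.3 and 10.3% in the transgenic line. As a share of nuclear transcripts alone, these were 19.6 to 20.2% and 25.4 to 26.7%. In RNA from whole seedlings, a change in the number of cells of a type and a change in RNA per cell cannot be told apart. Without transgenic replicate 1, 39 members rose and 8 fell, with a median of 0.44, among 5317 higher and 6047 lower of all 19383 features.

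**Figure D1:**
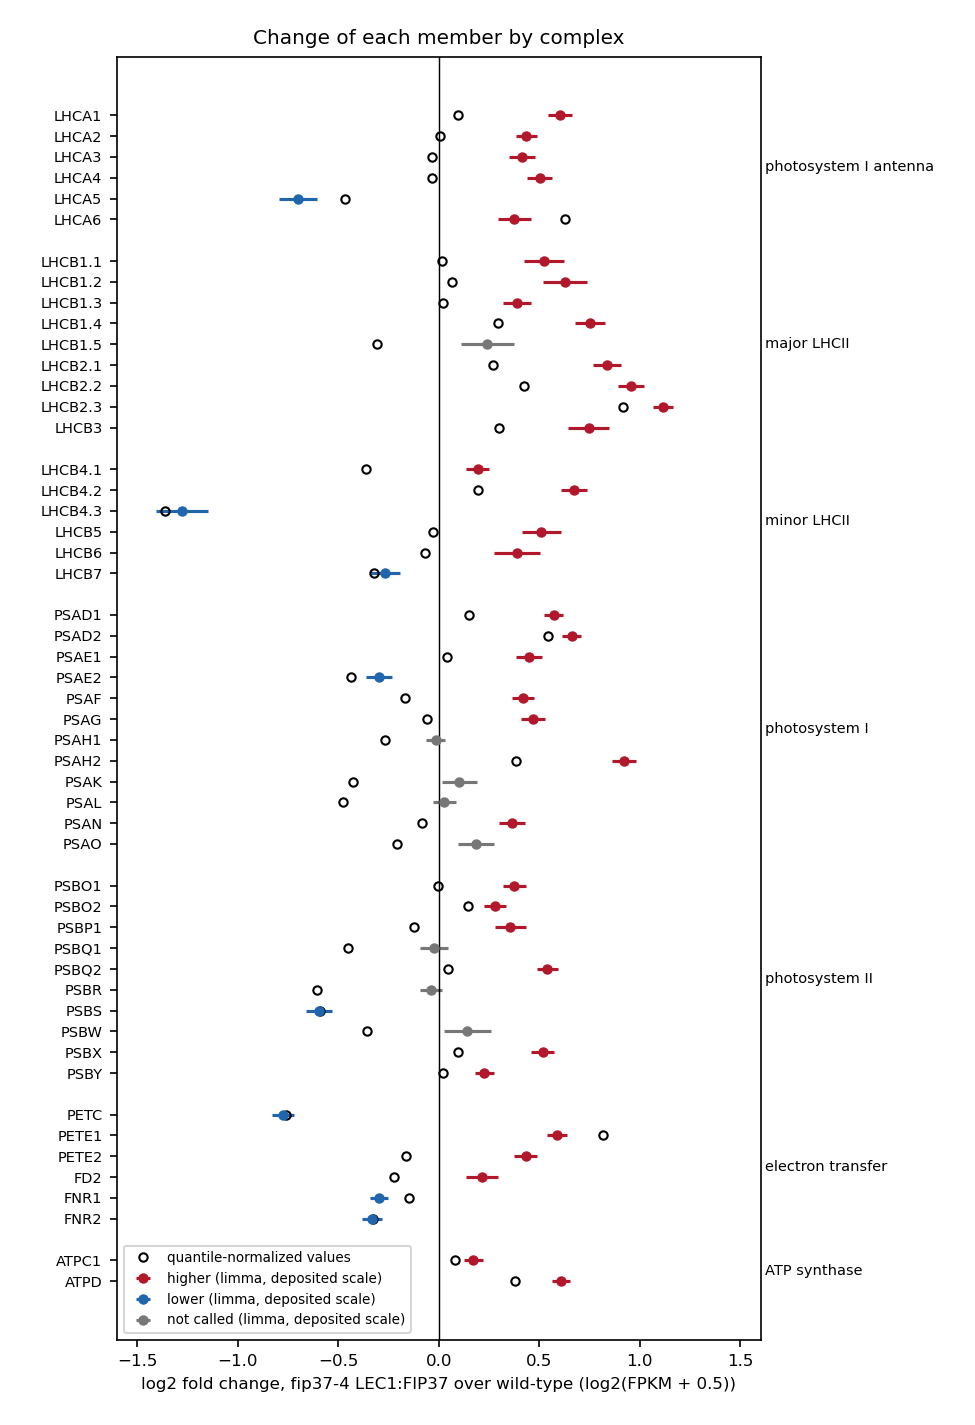
Log2 fold change of each of the 51 genes (fip37-4 LEC1:FIP37 over wild-type, log2(FPKM + 0.5), 3 libraries per group), ordered by complex. Filled points with bars are limma estimates ± SE on the deposited scale, coloured by call, and open circles are the estimates after quantile normalization, which lie to the left of the filled points for most genes.

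The count of higher genes depended on how libraries were scaled. With libraries scaled to the nuclear sum, 36 members were higher and 8 lower, among 4589 higher and 6049 lower of all 19383 features. Quantile normalization gives every library the same distribution of values, so it takes out much of a change that the highest genes share. Of the members, 42 were among the 100 highest nuclear loci. After quantile normalization 13 members were higher and 19 lower, with a median of -0.03. Of all features, 27.4% were higher and 27.7% lower there. The 13 were among the 35, namely LHCA6, LHCB1.4, LHCB2.1, LHCB2.2, LHCB2.3, LHCB3, LHCB4.2, PSAD1, PSAD2, PSAH2, PSBO2, PETE1 and ATPD. The 19 held the 8 that fell on the deposited scale, the 8 that had not passed the test there, and LHCB4.1, PSAF and PETE2, which turned from higher to lower. LHCA5, LHCB4.3, PSBS, PETC, FNR1 and FNR2 were lower under every setting tried. Results that follow are on the deposited scale, and those 13 higher and 6 lower genes kept their calls under every setting.

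**Figure D2:**
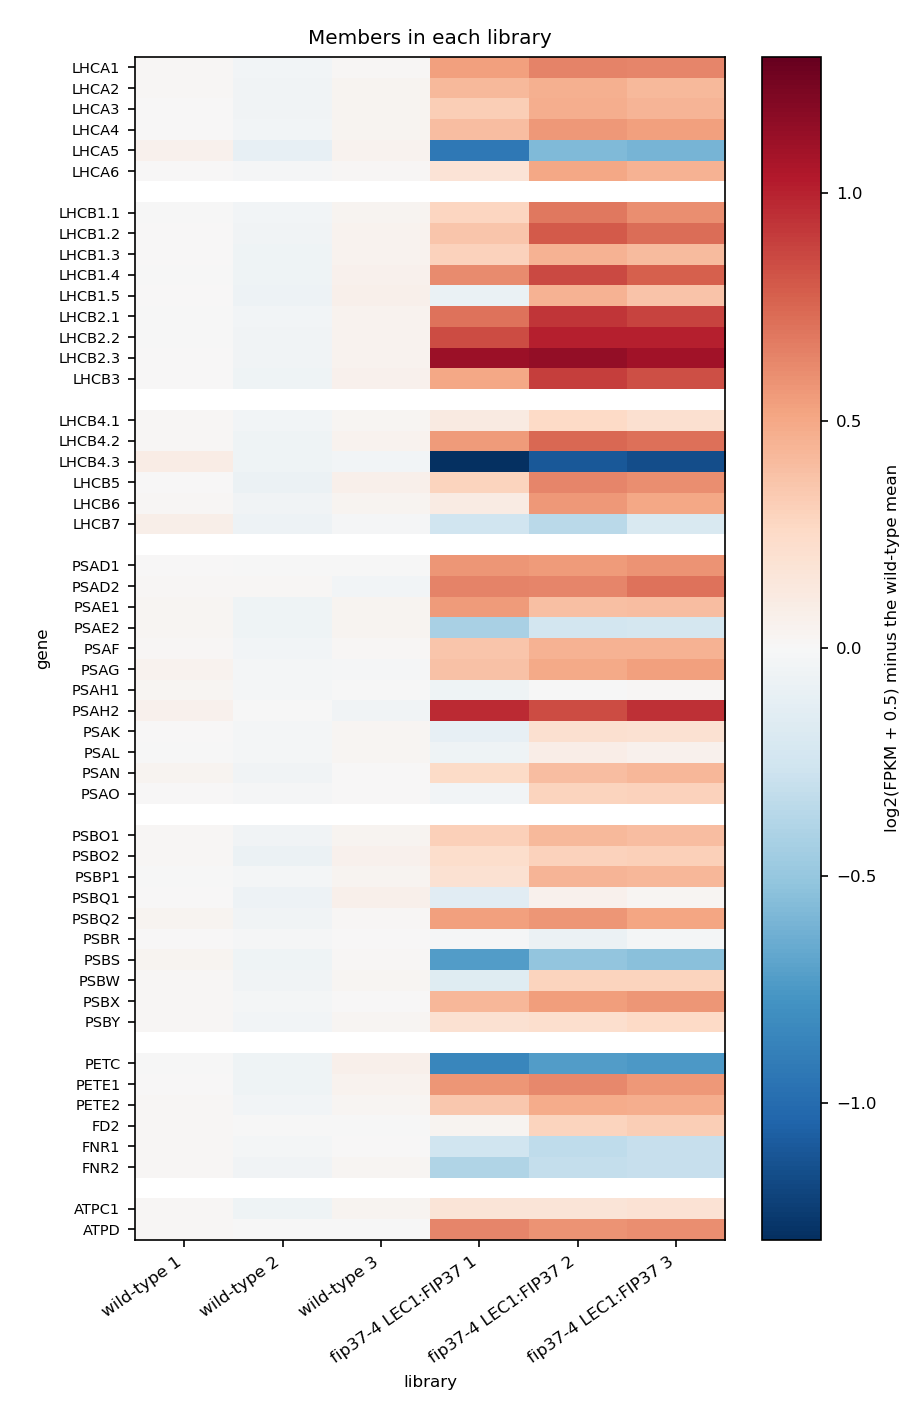
Level of each of the 51 genes in each of the 6 libraries, as log2(FPKM + 0.5) minus the mean of the wild-type libraries, with red above and blue below that mean. The wild-type columns are pale throughout, and the first transgenic column is paler in red or deeper in blue than the other 2 for 38 of the 51 genes.

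The major antenna of photosystem II had the highest median change of the 7 groups. Of its 9 genes 8 rose and 1 did not pass the test, with a median log2 fold change of 0.75, and their summed level went from 38047, 36556 and 39304 FPKM in wild-type to 47765, 59102 and 56681 FPKM, a fold of 1.44; after quantile normalization 5 were higher and 1 lower, with a median of 0.27. LHCB2.3 (AT3G27690), a gene of the LHCII trimer, was at 471, 456 and 486 FPKM in wild-type and 1017, 1036 and 1004 FPKM in the transgenic line. The rise of 1.11 ± 0.049 (SE, limma adjusted p = 1.51e-06) on the log2 scale was the largest among the members, and its libraries varied little within each group. LHCB2.2 (AT2G05070) was at 1239, 1203 and 1282 FPKM in wild-type and 2230.5, 2500.4 and 2498 FPKM in the transgenic line, and LHCB2.1 (AT2G05100) at 1467, 1428 and 1510.3 FPKM in wild-type and 2397, 2792 and 2706 FPKM in the transgenic line. Both rose, by 0.95 ± 0.064 (SE, limma adjusted p = 8.22e-06) and by 0.84 ± 0.069 (SE, limma adjusted p = 2.30e-05) on the log2 scale. LHCB2 proteins are those whose phosphorylation is needed for LHCII to move between the photosystems. LHCB3 (AT5G54270), another subunit of the LHCII trimers, was at 2764, 2649.7 and 2874 FPKM in wild-type and 3921, 5133 and 4929 FPKM in the transgenic line. It rose by 0.75 ± 0.10 (SE, limma adjusted p = 0.000343) on the log2 scale, with transgenic replicate 1 lowest of its group and still above every wild-type library.

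LHCB1 encodes the bulk of LHCII and held 5 members. LHCB1.3 (AT1G29930) had the highest level of all members, with 12793, 12281 and 13145 FPKM in wild-type and 15725, 17423 and 16904 FPKM in the transgenic line. It rose by 0.39 ± 0.069 (SE, limma adjusted p = 0.00146) on the log2 scale. LHCB1.4 (AT2G34430) was at 3106, 2989 and 3232 FPKM in wild-type and 4759, 5633 and 5339 FPKM in the transgenic line, a rise of 0.75 ± 0.075 (SE, limma adjusted p = 6.44e-05), and its groups were far apart. LHCB1.1 (AT1G29920) went from 2887 ± 65.4 to 4177 ± 597 FPKM and LHCB1.2 (AT1G29910) from 4934 ± 156 to 7688 ± 1173 FPKM (SD, n = 3 per group), with log2 fold changes of 0.52 and 0.63. LHCB1.5 (AT2G34420) was the gene of this group that did not pass the test, at 8386, 7949 and 8731 FPKM in wild-type and 7859.5, 11390.2 and 10759 FPKM in the transgenic line. Its transgenic replicate 1 lay below every wild-type library and the other 2 above them all. LHCB1.5 had 0.24 ± 0.13 (SE, limma adjusted p = 0.147) on the log2 scale, and without transgenic replicate 1 it was 0.41 (limma adjusted p = 6.03e-05). Leaving out the library that lies apart lowers the spread and raises the change, here and for PSAK, PSAO and PSBW, so that p-value does not establish a rise.

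In the minor antenna 4 of 6 genes rose and 2 fell, with a median of 0.29 and a summed fold of 1.36; after quantile normalization 1 was higher and 3 lower, with a median of -0.19. LHCB4.2 (AT3G08940), a CP29 gene, was at 1163, 1109 and 1188 FPKM in wild-type and 1697, 1929.7 and 1891 FPKM in the transgenic line, a change of 0.67 ± 0.065 (SE, limma adjusted p = 5.33e-05). Its paralog LHCB4.1 (AT5G01530) moved less, at 1799, 1729.6 and 1803 FPKM in wild-type and 1924, 2129 and 2048 FPKM in the transgenic line, with 0.19 ± 0.058 (SE, limma adjusted p = 0.0201). The call for LHCB4.1 was lost when any of 4 libraries was left out, with limma adjusted p from 0.0656 to 0.0837, and after quantile normalization it was at -0.36. LHCB5 (AT4G10340) went from 3179 ± 156 to 4547 ± 588 FPKM, and LHCB6 (AT1G15820) from 2065 ± 62.2 to 2731 ± 448 FPKM, with log2 fold changes of 0.51 and 0.39. The call for LHCB6 did not hold when wild-type replicate 2 was left out, or transgenic replicate 2 or 3 (limma adjusted p 0.0607, 0.0578 and 0.0623).

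LHCB4.3 (AT2G40100), a divergent CP29 gene also called LHCB8, fell, unlike LHCB4.1 and LHCB4.2. It was at 5.23, 4.64 and 4.72 FPKM in wild-type and 1.29, 1.99 and 1.91 FPKM in the transgenic line. The wild-type values were worth about 188 to 218 fragments each and the transgenic values about 49.95 to 93.2. The change of -1.28 ± 0.13 (SE, limma adjusted p = 6.55e-05) was the largest fall among the members, and the groups were far apart. LHCB7 (AT1G76570), a rare antenna protein, was as low, at 4.53, 4.03 and 4.22 FPKM in wild-type and 3.47, 3.24 and 3.66 FPKM in the transgenic line. Its change was -0.27 ± 0.074 (SE, limma adjusted p = 0.0136), with no call when wild-type replicate 1 was left out (limma adjusted p = 0.0557) and after a trend with transcript length was removed (log2 fold change -0.12, limma adjusted p = 0.171).

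The photosystem I antenna showed 5 rises and 1 fall among 6 genes, with a median of 0.43 and a summed fold of 1.41; after quantile normalization 1 was higher and 1 lower, with a median of -0.01. LHCA1 (AT3G54890) to LHCA4 form the belt of photosystem I. LHCA1 was at 2927, 2823 and 2930.2 FPKM in wild-type and 4179, 4521 and 4499 FPKM in the transgenic line, a rise of 0.60 ± 0.059 (SE, limma adjusted p = 5.43e-05). LHCA4 (AT3G47470) went from 3236 ± 72.8 to 4585 ± 271 FPKM, LHCA2 (AT3G61470) from 2102 ± 57.1 to 2844 ± 50.7 FPKM and LHCA3 (AT1G61520) from 2826 ± 84.2 to 3767 ± 204 FPKM, with log2 fold changes of 0.50, 0.44 and 0.41. LHCA5 and LHCA6, scarce relatives known to join photosystem I to the NDH complex of cyclic electron flow, moved in opposite directions. LHCA5 (AT1G45474) was at 67.9, 60.7 and 67.5 FPKM in wild-type and 34.1, 43.8 and 42.7 FPKM in the transgenic line, a change of -0.70 ± 0.095 (SE, limma adjusted p = 0.000384). LHCA6 (AT1G19150) was at 48.9, 48.4 and 49.3 FPKM in wild-type and 55.1, 69.6 and 66.8 FPKM in the transgenic line, a rise of 0.38 ± 0.081 (SE, limma adjusted p = 0.00424). Neither gene had groups that overlapped.

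**Figure D3:**
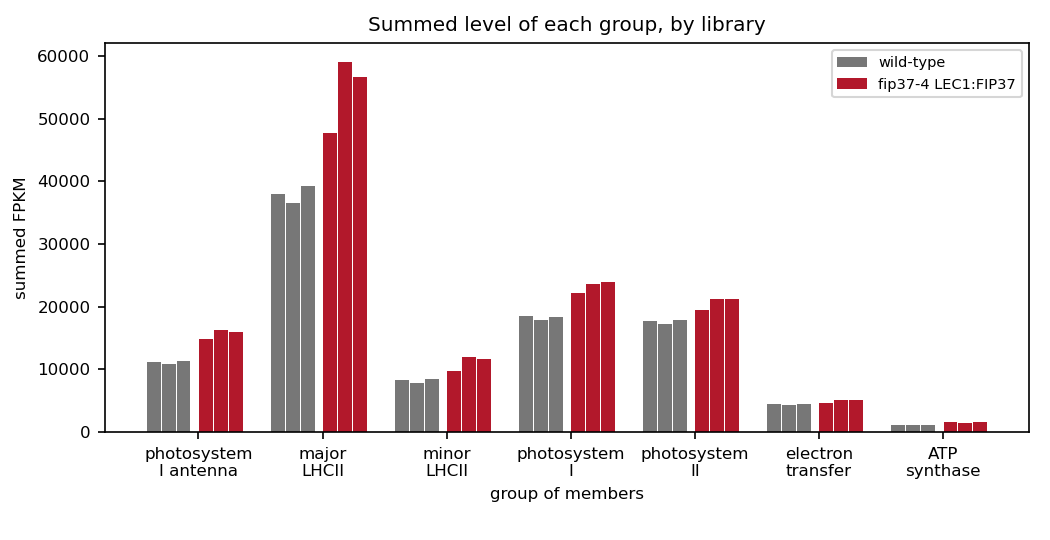
Summed FPKM of the members of each complex in each library, with wild-type in grey and fip37-4 LEC1:FIP37 in red, replicates 1 to 3 from left to right. The major antenna went from 36556 to 39304 FPKM in wild-type to 47765 to 59102 FPKM, and electron transfer genes from 4323 to 4468 FPKM to 4599 to 5105 FPKM.

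Summed levels of the antenna genes stood further above wild-type than those of the photosystem subunits that they serve. The 21 antenna genes summed to 1.42-fold and the 22 PSA and PSB genes to 1.22-fold of wild-type. The summed level of LHCA over that of PSA genes was 0.609, 0.609 and 0.624 in wild-type and 0.673, 0.690 and 0.666 in the transgenic line. For LHCB over PSB genes the ratios were 2.60, 2.58 and 2.66 and 2.96, 3.36 and 3.22. Both ratios were higher in each transgenic library than in any wild-type library, and, since they summarise the chosen genes, they are given as a description. They are of the deposited scale. There the median log2 fold change was 0.43 for LHCA and 0.39 for PSA genes, but 0.53 and 0.57 after removal of the length trend. After that removal PSB genes had 0.38, against 0.87 for the major and 0.41 for the minor antenna.

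Of the 12 photosystem I genes 7 rose, 1 fell and 4 did not pass the test, with a median of 0.39 and a summed fold of 1.28; after quantile normalization 3 were higher and 6 lower, with a median of -0.12. PSAD and PSAE form the stromal side on which ferredoxin docks. PSAD1 (AT4G02770) was at 915, 909 and 912 FPKM in wild-type and 1361, 1343 and 1364 FPKM in the transgenic line, and PSAD2 (AT1G03130) at 500.1, 499.7 and 482 FPKM in wild-type and 771, 768 and 807 FPKM in the transgenic line. They rose by 0.57 ± 0.047 (SE, limma adjusted p = 2.18e-05) and 0.66 ± 0.048 (SE, limma adjusted p = 1.23e-05) on the log2 scale, with libraries of a group within narrow ranges. PSAE1 (AT4G28750) was at 2170.4, 2055 and 2183 FPKM in wild-type and 3133, 2799.9 and 2828 FPKM in the transgenic line, and PSAE2 (AT2G20260) at 639, 604 and 644 FPKM in wild-type and 468, 532 and 537 FPKM in the transgenic line. The first rose by 0.45 ± 0.064 (SE, limma adjusted p = 0.000450), and the second changed by -0.30 ± 0.065 (SE, limma adjusted p = 0.00438), the one fall in photosystem I. PSAE2 lost its call after removal of the length trend (log2 fold change -0.04, limma adjusted p = 0.426).

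PSAH, PSAL and PSAO lie on the side of photosystem I where LHCII docks during state transitions. PSAH2 (AT1G52230) was at 1352, 1296 and 1257 FPKM in wild-type and 2544, 2341 and 2513 FPKM in the transgenic line, and PSAH1 (AT3G16140) at 774, 748 and 755 FPKM in wild-type and 732, 757 and 766 FPKM in the transgenic line. PSAH2 rose by 0.92 ± 0.059 (SE, limma adjusted p = 6.64e-06), the largest rise in photosystem I, whereas the groups overlapped for PSAH1, at -0.01 ± 0.048 (SE, limma adjusted p = 0.815). PSAL (AT4G12800) was at 1489, 1467 and 1520.1 FPKM in wild-type and 1434, 1584 and 1552 FPKM in the transgenic line, and PSAO (AT1G08380) at 2708, 2670.2 and 2717 FPKM in wild-type and 2642, 3289 and 3317 FPKM in the transgenic line. Neither passed the test, with 0.03 ± 0.057 (SE, limma adjusted p = 0.694) and 0.18 ± 0.09 (SE, limma adjusted p = 0.109), and PSAO was at 0.29 without transgenic replicate 1 (limma adjusted p = 2.82e-05).

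PSAF (AT1G31330) and PSAN (AT5G64040) lie on the lumenal side, where plastocyanin docks, and PSAG and PSAK at the edges facing the antenna. PSAF went from 1781 ± 34.7 to 2385 ± 87.9 FPKM, PSAN from 2111 ± 63.9 to 2722 ± 182 FPKM and PSAG (AT1G55670) from 1759.9 ± 45.5 to 2436 ± 135 FPKM. On the log2 scale they rose by 0.42, 0.37 and 0.47. PSAK (AT1G30380) was at 2118, 2077 and 2149 FPKM in wild-type and 1968, 2439 and 2431 FPKM in the transgenic line. It did not pass the test, with 0.10 ± 0.087 (SE, limma adjusted p = 0.344), and transgenic replicate 1 was again below wild-type while the other 2 were above. Without that library PSAK was at 0.20 (limma adjusted p = 0.00037).

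In photosystem II 6 of 10 genes rose, 1 fell and 3 did not pass the test, with a median of 0.25 and a summed fold of 1.17; after quantile normalization 1 was higher and 4 lower, with a median of -0.06. PSBO, PSBP and PSBQ shield the manganese cluster that splits water, and 4 of these 5 genes rose. PSBO1 (AT5G66570) was at 2470.4, 2367 and 2511 FPKM in wild-type and 3035, 3268 and 3236 FPKM in the transgenic line, and PSBO2 (AT3G50820) at 592, 556 and 606 FPKM in wild-type and 682, 722 and 726 FPKM in the transgenic line. They rose by 0.38 ± 0.058 (SE, limma adjusted p = 0.000696) and 0.28 ± 0.055 (SE, limma adjusted p = 0.00239) on the log2 scale. PSBQ2 (AT4G05180) was at 1311, 1238 and 1295 FPKM in wild-type and 1848, 1908 and 1826 FPKM in the transgenic line, and PSBQ1 (AT4G21280) at 1134, 1076 and 1179.8 FPKM in wild-type and 1018, 1170.3 and 1149 FPKM in the transgenic line. PSBQ2 rose by 0.54 ± 0.052 (SE, limma adjusted p = 5.43e-05), while PSBQ1 had overlapping groups and -0.02 ± 0.069 (SE, limma adjusted p = 0.784). PSBP1 (AT1G06680) went from 2154 ± 52.0 to 2763 ± 262 FPKM, with a log2 fold change of 0.36.

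PSBS (AT1G44575), which senses the acid lumen and switches on the dissipation of excess light as heat, fell. Its level was 496, 464 and 488 FPKM in wild-type and 291, 337 and 330.4 FPKM in the transgenic line, a change of -0.60 ± 0.066 (SE, limma adjusted p = 0.000107), with every transgenic library below every wild-type library. The small subunits PSBX (AT2G06520) and PSBY (AT1G67740) rose, from 2023 ± 29.6 to 2895 ± 146 FPKM and from 689 ± 15.7 to 806 ± 18.5 FPKM, with log2 fold changes of 0.52 and 0.23. PSBR (AT1G79040), which helps to stabilise PSBP, was at 4773, 4708 and 4751 FPKM in wild-type and 4685, 4512 and 4674 FPKM in the transgenic line. Its groups did not overlap, but the difference of -0.04 ± 0.054 (SE, limma adjusted p = 0.581) did not pass the test. PSBW (AT2G30570), a subunit that stabilises the supercomplex with LHCII, was at 2135, 2045 and 2151 FPKM in wild-type and 1889, 2576 and 2588 FPKM in the transgenic line. Transgenic replicate 1 was below wild-type for PSBW and the other 2 above, with 0.14 ± 0.12 (SE, limma adjusted p = 0.328) over all 3 and 0.29 without replicate 1 (limma adjusted p = 6.84e-05).

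Genes of electron transfer were divided, 3 higher and 3 lower, with a median of -0.04 and a summed fold of 1.12; after quantile normalization 1 was higher and 4 lower, with a median of -0.19. PETC (AT4G03280), the Rieske iron-sulphur protein of the cytochrome b6f complex, was at 514, 493 and 537 FPKM in wild-type and 285, 311 and 306 FPKM in the transgenic line, a change of -0.77 ± 0.056 (SE, limma adjusted p = 1.15e-05). The plastocyanin genes PETE1 (AT1G76100) and PETE2 (AT1G20340), which follow it in the chain, rose instead. PETE1 was at 149, 142 and 153 FPKM in wild-type and 219, 229 and 219 FPKM in the transgenic line, a change of 0.59 ± 0.048 (SE, limma adjusted p = 2.12e-05). PETE2, the main copy, was at 1738, 1685 and 1749 FPKM in wild-type and 2194, 2407 and 2384 FPKM in the transgenic line, a change of 0.43 ± 0.058 (SE, limma adjusted p = 0.000320), and it turned to -0.16 after quantile normalization. FD2 (AT1G60950), the main leaf ferredoxin, was at 1277, 1264 and 1259.6 FPKM in wild-type and 1300.0, 1548 and 1581 FPKM in the transgenic line. Its rise of 0.22 ± 0.078 (SE, limma adjusted p = 0.0410) passed the threshold narrowly, and it was lost in 5 of 6 fits without a library (limma adjusted p 0.1 to 0.145).

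FNR1 and FNR2, the leaf enzymes that pass electrons from ferredoxin to NADP, both fell. FNR1 (AT5G66190) was at 322, 312 and 319.8 FPKM in wild-type and 266, 253 and 258 FPKM in the transgenic line, and FNR2 (AT1G20020) at 445, 426 and 449.7 FPKM in wild-type and 335, 355 and 358 FPKM in the transgenic line. The changes were -0.30 ± 0.045 (SE, limma adjusted p = 0.000599) and -0.33 ± 0.05 (SE, limma adjusted p = 0.000583), with no overlap between groups for either gene. The ATP synthase genes both rose, while after quantile normalization ATPD alone was higher. ATPD (AT4G09650), the delta subunit, was at 606, 595 and 598 FPKM in wild-type and 933, 899 and 913 FPKM in the transgenic line, a change of 0.61 ± 0.046 (SE, limma adjusted p = 1.53e-05). ATPC1 (AT4G04640), the gamma subunit on which redox control acts, was at 554, 529 and 562 FPKM in wild-type and 614, 614 and 624 FPKM in the transgenic line, a change of 0.17 ± 0.048 (SE, limma adjusted p = 0.0139). The call for ATPC1 did not hold when wild-type replicate 2 was left out, or transgenic replicate 3 (limma adjusted p 0.0677 and 0.0522).

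The proportions of paralogs that encode the same subunit are given by library, and a share of this kind does not depend on a factor common to a library. Groups did not overlap for any share but those of LHCB1.3, FNR1 and FNR2. In level, 65.9% of all features did not overlap, and shares in families outside the members were not computed. PSAH2 held 63.6, 63.4 and 62.5% of PSAH transcripts in wild-type and 77.6, 75.6 and 76.6% in the transgenic line, a difference of 13.5 points. PSBQ2 went from 53.6, 53.5 and 52.3% of PSBQ to 64.5, 62.0 and 61.4%, a difference of 9.47 points. LHCB4.2 went from 39.2, 39.0 and 39.7% of LHCB4 to 46.8, 47.5 and 48.0%, a difference of 8.16 points, and PSAE1 from 77.3, 77.3 and 77.2% of PSAE to 87.0, 84.0 and 84.1%, a difference of 7.77 points. In each of these 4 families the groups did not overlap, and the exact two-sided permutation p was 0.1, the smallest that 3 against 3 libraries allow. Shifts as small as 0.50 points, that of LHCB1.1, had the same p, so lack of overlap does not set these 4 families apart. Within LHCB2 the differences were -2.78 points for LHCB2.1, 2.05 for LHCB2.3 and 0.73 for LHCB2.2. Within LHCB1 they were -3.38 points for LHCB1.5, 2.29 for LHCB1.4, 2.09 for LHCB1.2 and 0.50 for LHCB1.1, and -1.50 for LHCB1.3, whose groups overlapped (exact permutation p = 0.4). Differences were 1.44 points for PSAD2, 1.01 for PSBO1 and 0.83 for PETE1, and apart from LHCB1.3 all those of LHCB1, LHCB2, PSAD, PSBO and PETE had the exact p of 0.1. FNR1 held 41.9 ± 0.365% and 42.6 ± 1.49% of FNR transcripts (SD, n = 3 per group, exact permutation p = 0.8). As sums, LHCB2 stood at 1.91-fold of wild-type, PSAH at 1.56-fold, PSAD 1.52-fold, LHCB1 1.37-fold, PETE 1.36-fold, LHCB4 1.32-fold, PSBO 1.28-fold, PSAE 1.24-fold and PSBQ 1.23-fold, and FNR at 0.802-fold, all given as descriptions.

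**Figure D4:**
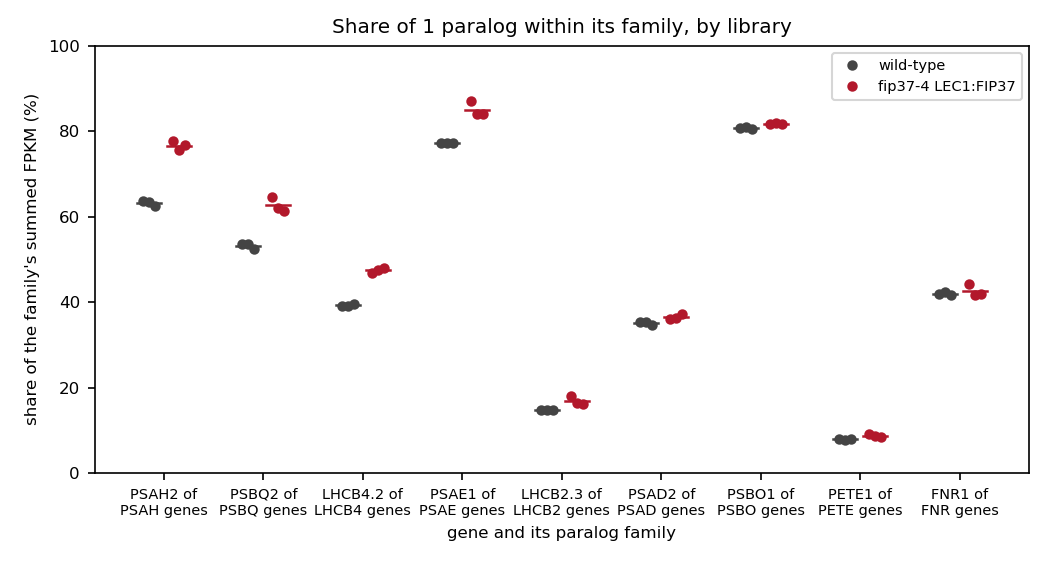
Share of 1 paralog in the summed FPKM of its family (percent), by library, with wild-type in grey, fip37-4 LEC1:FIP37 in red and lines at the means. PSAH2 went from 63.2 to 76.6% and PSBQ2 from 53.1 to 62.6%, while FNR1 had overlapping groups.

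How well such copies can be told apart differs by family. The coding sequences of LHCB1.1, LHCB1.2 and LHCB1.3 were 95.6 to 96.4% identical, and those of LHCB2.1 and LHCB2.2 were 96.6% identical. For LHCB1 genes, LHCB2.1 and LHCB2.2, 10.6 to 28.2% of the 50-nt stretches of the transcript occurred in a paralog too, so their single values are uncertain. PSAH1 and PSAH2 were 87.0% identical, PSAD1 and PSAD2 86.3%, PSBO1 and PSBO2 83.6%, LHCB4.1 and LHCB4.2 81.1%, PSAE1 and PSAE2 77.3% and PSBQ1 and PSBQ2 76.9%. In those pairs and in LHCB2.3 0% of the 50-nt stretches were shared. Other annotated genes overlap 18 of the members, and the largest overlap among the genes whose promoters are shown, 788 nt of PSAH1, is with AT3G16130, at 0.361 and 0.954 FPKM. LHCB2.3 overlaps AT3G27700, at 6.76 and 8.21 FPKM, over 595 nt.

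Most members had 1 transcript in the data. Of the 51 genes 12 have more than 1 transcript in the data, 67 transcripts in all. LHCA5 was the gene with both isoforms at a high share. Its second isoform held 69.3, 65.1 and 68.3% in wild-type and 81.5, 72.1 and 56.5% in the transgenic line, with overlapping groups (exact two-sided permutation p = 0.7). Its first isoform went from 20.8, 21.2 and 21.4 FPKM to 6.31, 12.2 and 18.6 FPKM and its second from 47.1, 39.5 and 46.1 FPKM to 27.8, 31.6 and 24.1 FPKM, so each was lower in every transgenic library.

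The members are among the highest nuclear transcripts of these seedlings, with 42 of them among the 100 highest loci and levels from 3.30 to 14712 FPKM. Of 580 other nuclear loci with a mean of at least 100 FPKM, 21.6% were higher and 57.4% lower, with a median log2 fold change of -0.26. Of the 47 members in that range 34 were higher and 5 lower, with a median of 0.41. After quantile normalization the other 580 had a median of -0.06, with 33.3% higher and 43.4% lower. The 47 members, with 12 higher and 16 lower and a median of -0.03, no longer stood above them. That scaling gives the highest ranks of every library the same values, so it cannot decide whether the highest genes rose together. Scaled to the nuclear sum, 35 of the 47 were higher and 5 lower, with a median of 0.39. The other 580 then had a median of -0.28, with 19.8% higher and 60% lower. The 4 members under 100 FPKM were LHCA5, LHCA6, LHCB4.3 and LHCB7, of which LHCA6 was higher and 3 were lower.

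**Figure D5:**
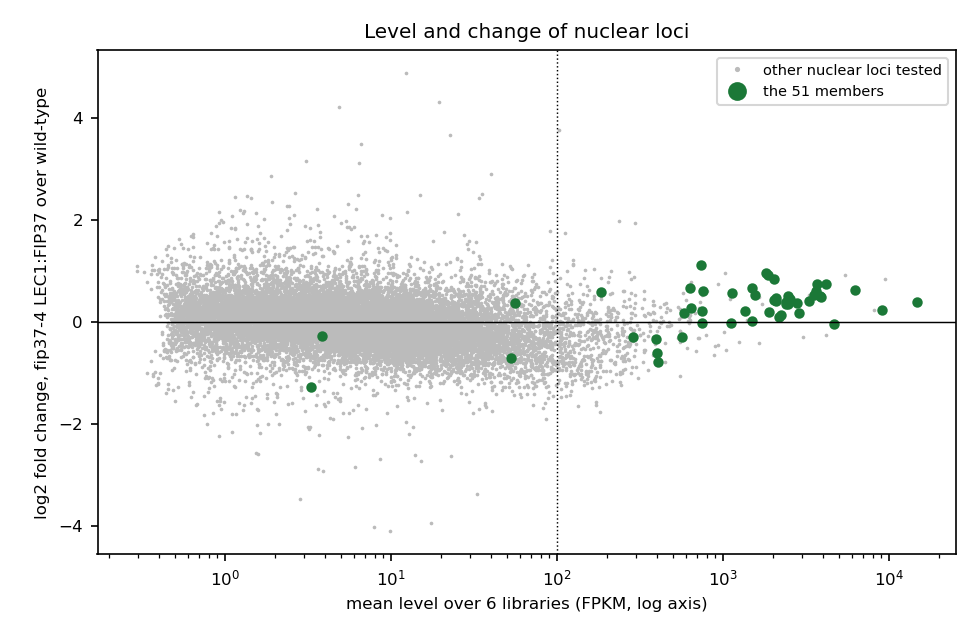
Log2 fold change (fip37-4 LEC1:FIP37 over wild-type) against the mean level over 6 libraries (FPKM, log axis) for tested nuclear loci in grey and the 51 members in green, with a dotted line at 100 FPKM. On the deposited scale members cluster at the right above 0, where other loci have a median of -0.26.

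Nuclear genes that assemble, regulate or extend the same machinery were counted from 9 lists with 41 genes, which all passed the filter. Of these 5 were higher, 17 lower and 19 did not pass the test, with a median log2 fold change of -0.05, where 27.6% of all tested features were higher and 30.9% lower. The balance of these calls depended on the scaling, with 16 higher and 16 lower after quantile normalization (median -0.0028, against 27.4% and 27.7% of all features). After removal of the length trend 15 were higher and 15 lower (median 0.04), among 5425 higher and 5425 lower of all 19383 features. Lists of 2 to 8 genes are given as counts, which such small lists do not set apart from those shares. Among 8 auxiliary and assembly genes of photosystem II 6 fell and 1 rose, against 4 lower and 1 higher after quantile normalization, where the gene that rose, PSBTN (AT3G21055), turned from 0.35 to -0.22. HCF136 (AT5G23120), an assembly factor of photosystem II, was at 118, 117 and 122 FPKM in wild-type and 70.8, 68.2 and 68.0 FPKM in the transgenic line, a change of -0.78 ± 0.043 (SE, limma adjusted p = 3.53e-06), and PSB28 (AT4G28660) at 81.3, 81.9 and 83.8 FPKM in wild-type and 46.4, 50.1 and 52.1 FPKM in the transgenic line, a change of -0.73 ± 0.052 (SE, limma adjusted p = 1.16e-05). Both were lower in each transgenic library than in any wild-type library. Of the 3 genes that set the phosphorylation of antenna and core, 2 fell and 0 rose. TAP38 (AT4G27800), the phosphatase that removes phosphate from LHCII, was at 65.3, 62.4 and 64.9 FPKM in wild-type and 34.4, 38.7 and 38.5 FPKM in the transgenic line, a change of -0.78 ± 0.056 (SE, limma adjusted p = 1.15e-05). STN8 (AT5G01920), a kinase of core proteins, fell by 0.37 on the log2 scale, and the LHCII kinase gene STN7 (AT1G68830) was at -0.05 ± 0.042 (SE, limma adjusted p = 0.353), which became 0.13 with a call after quantile normalization.

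Of 4 genes that insert antenna proteins into the membrane 1 was higher and 1 lower, shares close to those of all features, with 3 higher and 1 lower after quantile normalization. CPSRP43 (AT2G47450), the chaperone of LHC proteins in the stroma, was at 34.8, 38.0 and 44.6 FPKM in wild-type and 55.6, 64.6 and 57.1 FPKM in the transgenic line, a rise of 0.59 ± 0.094 (SE, limma adjusted p = 0.000886). CPFTSY (AT2G45770), the receptor of the same route, was at 15.5, 15.7 and 16.8 FPKM in wild-type and 10.6, 10.2 and 10.9 FPKM in the transgenic line, a change of -0.57 ± 0.052 (SE, limma adjusted p = 3.64e-05). Of 6 antenna-like proteins 1 fell and 0 rose (3 were higher after quantile normalization), OHP2 (AT1G34000) at -0.56. For cytochrome b6f and cyclic flow 2 of 4 fell and 0 rose (2 were higher after quantile normalization), PGRL1B (AT4G11960) at -0.43 and PETM (AT2G26500) at -0.39. Of 4 NDH genes NDHM (AT4G37925) rose by 0.56 and NDHL (AT1G70760) was at -0.26, and the other 2, NDHN (AT5G58260) and NDHO (AT1G74880), were at 0.20 and 0.11 and did not pass the test. After quantile normalization 3 were higher and 0 lower, with NDHN at 0.37 and NDHO at 0.33, and the same counts were found after removal of the length trend. NDHL lost its call after quantile normalization and after removal of the length trend (log2 fold change -0.02 in both), as did PETM in the latter (-0.16).

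Among 6 other ferredoxins and root-type FNR genes 2 rose and 2 fell. RFNR1 (AT4G05390) was at -0.68 and FDC2 (AT1G32550) also at -0.68, whereas RFNR2 (AT1G30510) and FD1 (AT1G10960), the second leaf ferredoxin, rose by 0.48 and 0.36 on the log2 scale. Of 4 genes of thylakoid curvature 2 fell and 0 rose (4 were lower after quantile normalization), CURT1D (AT4G38100) at -0.51 and CURT1C (AT1G52220), the upstream neighbour of PSAH2, at -0.41. After removal of the length trend 2 of these 4 genes were higher and 2 lower, with a median of -0.0060. The 2 other ATP synthase genes did not pass the test, with ATPG (AT4G32260) at 0.02 ± 0.049 (SE, limma adjusted p = 0.733) and ATPC2 (AT1G15700) at 0.17 ± 0.087 (SE, limma adjusted p = 0.118). Both were called higher after removal of the length trend, at 0.19 and 0.31. A list of 31 chloroplast loci, drawn up by locus code for subunits of the same complexes, held 20 tested loci. Of these 17 were higher and 0 lower (limma adjusted p under 0.05), with a median of 0.60. Among all tested features 27.6% were higher and 30.9% lower. After quantile normalization 2 were higher and 1 lower (median 0.15), against 27.4% and 27.7% of all features. Genes of the organelles as a whole took 50.7 to 51.2% of all FPKM in wild-type and 56.9 to 60.1% in the transgenic line. Whether the list differed from other organelle genes was not tested. The other 11 loci of the list were at 0 in every library. No chloroplast locus is named because neither the data nor the reference table pairs these codes with names.

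Markers of cell types and stages are given by list, beside 27.6% of all features higher and 30.9% lower. Of 5 enzymes of leaf mesophyll 3 were higher and 0 lower, and their summed level went from 9481 to 9640 FPKM in wild-type to 15575 to 17620 FPKM in the transgenic line. CA1 (AT3G01500), a carbonic anhydrase, and RCA (AT2G39730), Rubisco activase, rose by 0.97 and 0.88 on the log2 scale. RBCS1A (AT1G67090), at 6787 FPKM in wild-type and 12208 FPKM in the transgenic line on average, made up most of the summed level. It rose by 0.84, while GAPB (AT1G42970) and SBPASE (AT3G55800) did not pass the test, at -0.05 and -0.04. Of 5 markers of the guard cell lineage 1 was higher and 3 lower, with sums of 18.9 to 19.996 FPKM and 13.4 to 14.1 FPKM. SPCH (AT5G53210) and TMM (AT1G80080), which act early in that lineage, were at -1.11 and -0.94. FAMA (AT3G24140) was the marker that rose, by 0.29 (limma adjusted p = 0.0345), without a call after quantile normalization (limma adjusted p = 0.0595). Of 5 root endodermis markers 1 was higher and 2 lower, with sums of 31.8 to 35.3 FPKM and 23.7 to 25.2 FPKM. CASP1 (AT2G36100) and CASP2 (AT3G11550) were at -0.77 and -0.65. SCR (AT3G54220) was the marker that rose, by 0.28 (limma adjusted p = 0.0180), without a call after removal of the length trend (limma adjusted p = 0.0652). Both tested root hair markers, of 5, were higher, EXPA7 (AT1G12560) by 0.81 and RHD6 (AT1G66470) by 0.46, and the 5 summed to 2.39 to 2.75 FPKM and 4.55 to 4.78 FPKM. RHD6 was at 0.411, 0.400 and 0.477 FPKM in wild-type and 0.797, 0.757 and 0.793 FPKM in the transgenic line. It reached the filter of 0.5 FPKM only in the transgenic line, so its being tested was tied to its being higher there. Both phloem markers, SUC2 (AT1G22710) and APL (AT1G79430), did not pass the test, with sums of 52.9 to 56.7 FPKM and 47.2 to 56.2 FPKM. All 4 seed markers were higher, EM6 (AT2G40170) by 1.80 and OLEO2 (AT5G40420) by 1.66, with sums of 4.16 to 4.88 FPKM and 17.6 to 18.1 FPKM. None of these markers was at 0 in every library, and their part in the changes of the members was not tested. After quantile normalization no marker list turned from mostly higher to mostly lower or the reverse, with 4 of 5 mesophyll enzymes higher, 4 of 5 guard cell lineage markers lower and SUC2 higher by 0.15.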

How the data were processed

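The deposited table of each sample lists FPKM for transcripts. The submitters' processing notes name TopHat2 2.0.9, Cufflinks 2.1.1 and TAIR10 as what the authors used, and the labels' protocols name a strand-specific kit after removal of ribosomal RNA, for 6 samples. Strand use in counting is not stated in those sources. Isoforms were summed per locus (36104 transcripts, 28141 features), those that reached 0.5 FPKM in 3 or more of 6 libraries were kept (19383), and log2(FPKM + 0.5) was fitted by genotype in limma 3.58.1 (R 4.3.3) with a variance trend and robust shrinkage. P-values were adjusted over all 19383 by Benjamini-Hochberg. The added 0.5 FPKM understates changes of low genes. Paralog and isoform shares were compared with SciPy 1.17.1 by an exact two-sided permutation test. Alternatives were other pseudocounts, filters and scalings, plain empirical Bayes, removal of a length trend, single transcripts, a replicate block and leaving out each library. Promoters, annotation and coding sequences came from RefSeq's TAIR10.1, matched by locus code for 51 of 51 genes. The data hold no coordinates, and those printed are of that assembly.

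Values are given in every library for up to 2 called genes per complex with the largest absolute log2 fold change, those not called or called against the majority of their complex, and both members of paralog pairs. Of every other list, up to 2 called genes with the largest changes are named, or the 2 highest where none was called. Outside this rule stand STN7, PSBTN, NDHN, NDHO, FD1, RFNR2, FAMA, SCR, RBCS1A, GAPB, SBPASE, further members given by library, and the promoters of PSAH1 and PSAH2, picked once their values had been seen. The members and lists were chosen with earlier results of these data known. Proteins planned for 2 paralog pairs are not shown.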

Additional observations from a re-analysis of the deposited data

How the results depend on the processing

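With 3 libraries per group and FPKM of unknown fragment number, only relative depth is known. Across 17 alternatives, 798 member values kept their direction and their side of the threshold, 32 kept the direction without a call, 13 gained a call and 24 changed sign, and the causes were not tested. Quantile normalization gave 13 higher, 19 lower and a median of -0.033, and turned LHCA3 to -0.033, LHCA4 to -0.035, LHCB1.5 to -0.30, LHCB4.1 to -0.36, LHCB5 to -0.029, LHCB6 to -0.067, PSAF to -0.17, PSAG to -0.056, PSAK to -0.42, PSAL to -0.48, PSAN to -0.081, PSAO to -0.21, PSBO1 to -0.0038, PSBP1 to -0.13, PSBW to -0.36, PETE2 to -0.16 and FD2 to -0.22. Removal of the length trend gave 42 higher, 6 lower and a median of 0.53, and turned PSAH1 to 0.10, PSBQ1 to 0.19 and PSBR to 0.21. Of all 19383 features, 5425 were higher and 5425 lower there. With 1 library left out, 31 to 39 members were higher and 7 or 8 lower, and the median was 0.36 to 0.44. In those fits 4476 to 5317 of all 19383 features were higher and 5274 to 6047 lower. PSAH1 ranged from -0.028 to 0.0042, PSAL from -0.00056 to 0.071 and PSBQ1 from -0.062 to 0.039, and the difference in share ranged from -0.25 to 1.096 points for FNR1 and from -1.096 to 0.25 for FNR2, the sign turning without transgenic replicate 1. FD2 also lost its call with no filter, with plain empirical Bayes and with the highest transcript on its own (limma adjusted p 0.0557, 0.0594 and 0.0612). Apart from the replicate block, the other alternatives gave 34 to 36 members higher and 8 lower, among 4507 to 5697 features higher and 5455 to 6049 lower.

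Replicate numbers share no stated batch, and deviations from the group mean correlated at -0.028, -0.049 and -0.057 for same-numbered libraries. For differently numbered libraries they correlated at -0.046 to 0.099. Such deviations within groups of 3 depend on each other, so these values cannot decide whether libraries shared a batch. The main fit did not pair them. With a replicate block, 33 members were higher and 8 lower, with a median of 0.39, among 5075 features higher and 5804 lower in all, and LHCB4.1 and FD2 lost their calls (limma adjusted p 0.0633 and 0.0647).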
